A study of Mus musculus with 6 samples.

Results

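The genes described here are 7 genes of prostaglandin synthesis, breakdown and reception: Ptgs1, Ptgs2, Ptges, Hpgds, Hpgd, Pla2g7 and Ptger4. Members were taken as all probes whose annotation gives 1 of these symbols. That gave 10 of the 45281 probes on the array, which belong to 6 of the 7 genes, since no probe of Ptgs1 was annotated. For comparison, the annotation names 19057 gene symbols in all. A gene was tested if at least 1 of its probes was detected on 2 or more of the 6 arrays, and 5 members were tested among 8598 genes: Ptgs2, Ptges, Hpgds, Hpgd and Pla2g7.

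Prostaglandins are short-lived lipid signals made from arachidonic acid, which phospholipases and lipases free from membranes. The cyclooxygenases turn it into a common precursor, terminal synthases turn that precursor into prostaglandin E, prostaglandin D and related lipids, and dehydrogenases inactivate them. In brain inflammation, microglia and other macrophages are known as makers of prostaglandin E through the inducible cyclooxygenase and its partner synthase, and prostaglandin E acts on cells through receptors of the EP family.

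The cells were microglia, macrophages that live in the brain, taken at postnatal day 3, and RNA of the whole culture was profiled. Groups were LRRK2KO and Ntg cells given lipopolysaccharide (LPS, an outer-membrane component of bacteria) in vitro for 24 h, the same genotypes given LPS for 6 h, and the same genotypes given phosphate-buffered saline (PBS) for 24 h. LRRK2KO cells came from B6.129X1(FVB)-Lrrk2tm1.1Cai/J mice, which carry a disrupted leucine-rich repeat kinase 2 gene, and Ntg cells from C57BL/6 mice. A single Illumina beadchip was run for each of these 6 groups. The strain names differ beyond the targeted allele, so genotype and strain background cannot be told apart. LPS for 6 h had only PBS for 24 h to be set against, so treatment and time in culture cannot be told apart in that comparison. The labels do not say whether the arrays came from separate animals or cultures, so p-values rest on the spread between arrays, which may be technical. No group has a replicate, so that spread also holds any dependence of the arm effect on genotype.

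A probe is called detected on an array where the deposited detection p-value, which sets its brightness against negative control beads, is under 0.01. Between 13126 and 15049 probes were detected per array. The targeted gene could not check the genotype labels: of 36 values from 6 Lrrk2 probes, 1 was detected, on the Ntg PBS array. Of 12 microglial markers with a probe, 9 or 10 were detected per array, while P2ry12 and Siglech were not detected on any. Of 6 neuronal markers, 0 or 1 was detected per array.

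The promoters of 4 members are shown because their transcripts moved most clearly between the LPS and PBS arms, Ptgs2 and Ptges upwards and Hpgd and Hpgds downwards. Each is the RefSeq stretch of GRCm38.p6 from 250 bases before to 50 bases after the annotated start, on the gene's own strand, and capitals mark matches to 7 searched motifs. For Ptges and Hpgds the window lies inside the gene span given below, so that start is not the gene's outer end. The stretches are chr1:150099781-150100080 on the plus strand for Ptgs2, chr2:30903248-30903547 on the minus strand for Ptges, chr8:56294302-56294601 on the plus strand for Hpgd and chr6:65144681-65144980 on the minus strand for Hpgds.
Ptgs2: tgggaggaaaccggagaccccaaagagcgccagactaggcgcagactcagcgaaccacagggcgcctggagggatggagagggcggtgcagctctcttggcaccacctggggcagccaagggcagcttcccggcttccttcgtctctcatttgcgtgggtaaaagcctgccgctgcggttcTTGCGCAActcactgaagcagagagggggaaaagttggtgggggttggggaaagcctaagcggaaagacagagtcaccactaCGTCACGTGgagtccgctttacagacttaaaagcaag
Ptges: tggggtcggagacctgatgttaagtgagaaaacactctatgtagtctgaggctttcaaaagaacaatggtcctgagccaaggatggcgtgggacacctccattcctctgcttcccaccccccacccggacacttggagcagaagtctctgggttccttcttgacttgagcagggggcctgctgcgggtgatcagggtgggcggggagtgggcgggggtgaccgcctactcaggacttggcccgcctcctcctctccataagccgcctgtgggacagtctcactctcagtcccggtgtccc
Hpgd: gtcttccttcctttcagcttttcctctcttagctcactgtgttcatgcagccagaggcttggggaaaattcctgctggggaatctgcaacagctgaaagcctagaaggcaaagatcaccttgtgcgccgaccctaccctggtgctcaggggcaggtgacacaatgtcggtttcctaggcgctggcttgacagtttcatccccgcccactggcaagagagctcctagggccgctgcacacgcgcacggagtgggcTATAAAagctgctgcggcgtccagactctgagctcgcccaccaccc
Hpgds: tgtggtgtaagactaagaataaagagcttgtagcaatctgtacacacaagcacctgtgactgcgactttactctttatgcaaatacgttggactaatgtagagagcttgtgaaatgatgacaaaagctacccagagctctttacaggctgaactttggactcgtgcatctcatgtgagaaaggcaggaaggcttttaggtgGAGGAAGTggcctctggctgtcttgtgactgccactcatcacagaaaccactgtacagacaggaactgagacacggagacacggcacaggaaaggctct
The motifs were searched on both strands in 32851 promoters of the same 300-base window. The C/EBP palindrome TTGCGCAA, held by 0.183% of all promoters, lies in Ptgs2 from -69 to -62 relative to the start. Also in Ptgs2, the core of the cyclic AMP response element TGACG (20.8% of promoters) matched on the opposite strand at 14 to 18 past the start, and the E-box CACGTG (7.15%) at 17 to 22, so those matches overlap. The Hpgds promoter holds the PU.1 motif GAGGAAGT (3.2%) at -49 to -42, as the Ptgs1 promoter does at -24 to -17, and the Hpgd promoter holds TATAAA (13.6%) at 5 to 10 past the annotated start. Neither the AP-1 motif TGAGTCA (5.2% of promoters) nor the NF-kB motif (4.51%) matched in any of the 7 members' windows, and the Ptges window held none of the 7 motifs. These matches describe letters only.

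Ptges, the inducible synthase of prostaglandin E, was 11.6-fold higher after LPS for 24 h and 21.1-fold higher after LPS for 6 h than in PBS. Ptgs2, the inducible cyclooxygenase, was at least 5.19-fold higher after LPS for 6 h than in PBS and did not pass the test after LPS for 24 h. Hpgd, an enzyme of prostaglandin breakdown, was at least 6.30-fold lower after LPS for 24 h than in PBS. Hpgds, the enzyme of prostaglandin D synthesis, was 2.20-fold lower after LPS for 24 h. No member passed the test between LRRK2KO and Ntg.

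**Figure D1:**
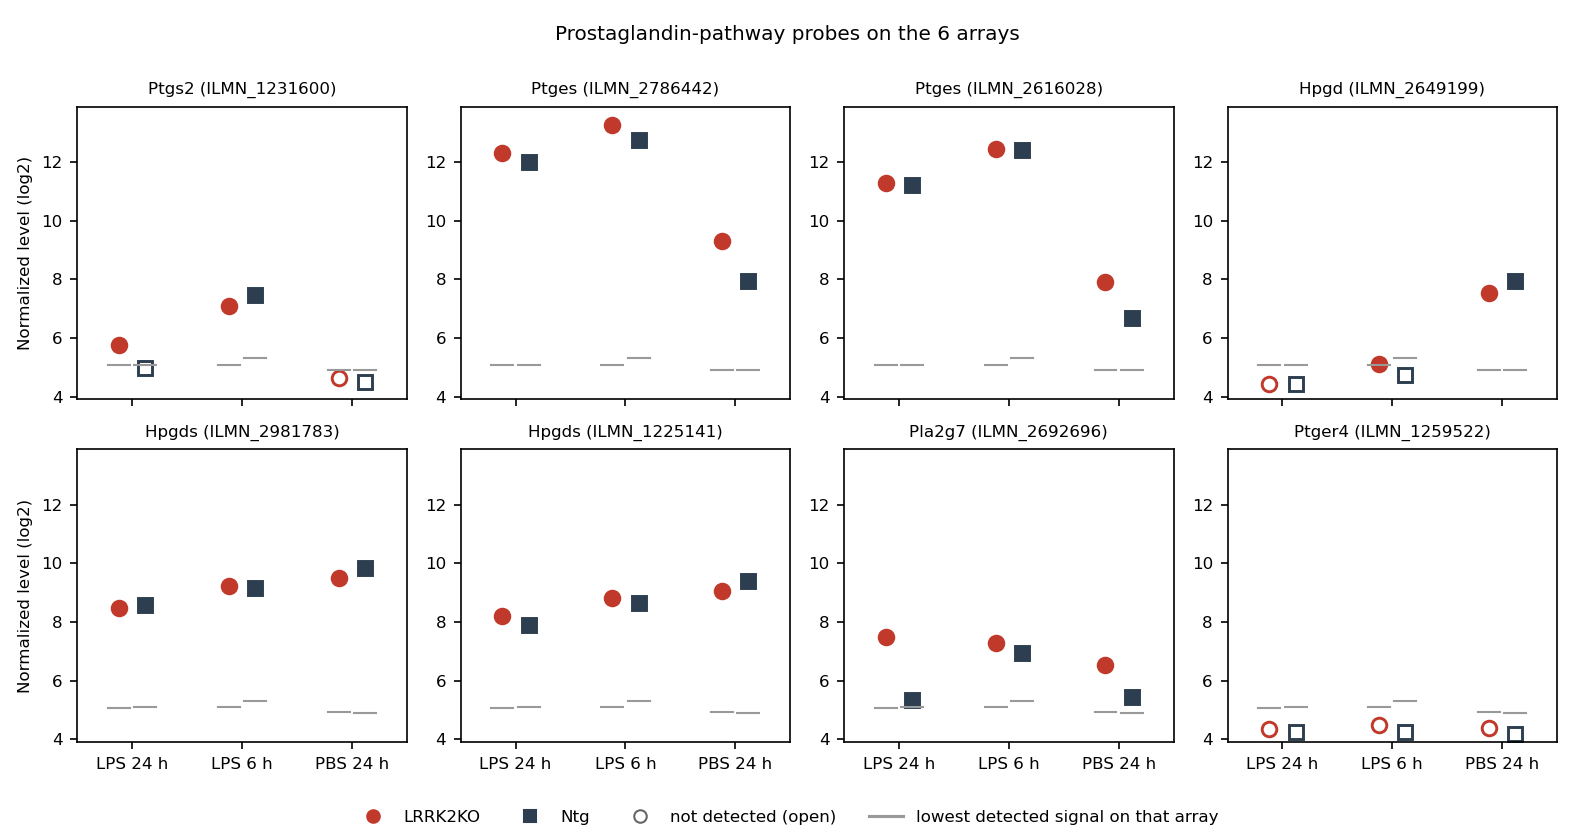
Normalized level (log2, y axis) of the member probes detected on any array, and of 1 undetected Ptger4 probe, on each of the 6 arrays, by arm (x axis) and genotype (colour), 1 point per array. Open points mark values that were not detected, and grey lines the lowest detected signal on that array. Both Ptges probes lie higher on all 4 LPS arrays than on the PBS arrays, Hpgd lies highest on the 2 PBS arrays, and Ptgs2 on the 2 arrays of LPS for 6 h.

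The levels given below are log2 values after background correction, an added offset of 16 and quantile normalization, unless an intensity is named, which is the deposited brightness before any correction. Differences are coefficients, with their standard errors, of an additive limma model of arm and genotype over the 6 arrays (2 arrays an arm, 3 a genotype). The 2 arrays of an arm are of different genotypes, so the standard errors hold array noise and any dependence of the arm effect on genotype. A gene counts as called where the p adjusted by Benjamini and Hochberg over the 8598 genes is under 0.05. A gene's fit uses its probe with the highest mean, and levels of different probes are not set against each other.

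The cyclooxygenases open the pathway. Ptgs1, the constitutive form (chromosome 2, 36216742 to 36258593), has no value here because it has no annotated probe. Ptgs2, the inducible form (chromosome 1, 150100031 to 150108234), has 2 probes. On probe ILMN_1231600 its intensity was 135 in LRRK2KO and 116 in Ntg after LPS for 24 h, 192 in LRRK2KO and 228 in Ntg after LPS for 6 h, and 99.0 in LRRK2KO and 114 in Ntg after PBS. It was detected on both arrays of LPS for 6 h and on the LRRK2KO array of LPS for 24 h, and on neither PBS array. The log2 levels were 5.74 in LRRK2KO and 4.99 in Ntg at 24 h, 7.11 in LRRK2KO and 7.47 in Ntg at 6 h, and 4.62 in LRRK2KO and 4.51 in Ntg after PBS. The arrays of LPS for 6 h stood above all others. The Ntg array of LPS for 24 h and both PBS arrays were undetected, so the order among those arrays is not interpreted. The second probe, ILMN_2717913, stayed undetected on all 6 arrays, at intensities of 87.7 to 100.12, and gives no check on the first.

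Since Ptgs2 was undetected in PBS, its difference from PBS is a bound. The bound sets the mean of the brighter arm against a dim value that is, for each array, the higher of the lowest level of any detected probe and the probe's own. After LPS for 6 h Ptgs2 was at least 5.19-fold higher than in PBS, with a fitted difference of 2.72 ± 0.27 (limma adjusted p = 0.00132). After LPS for 24 h it was at least 1.37-fold higher than in PBS, which did not pass the test (fitted difference 0.80 ± 0.27, 95% interval 0.13 to 1.47, limma adjusted p = 0.107). Ptgs2 fell between the LPS times, by 1.92 ± 0.27 at 24 h against 6 h (limma adjusted p = 0.00904). Without the Ntg array of LPS for 24 h that fall was 1.48 in size with an adjusted p = 0.0660, no longer called. On the authors' normalized values, which keep the background, the differences were smaller, at 1.19 for 6 h against PBS and -0.94 for 24 h against 6 h, and both were called.

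Ptges encodes the inducible terminal synthase that makes prostaglandin E from the cyclooxygenase product (chromosome 2, 30889471 to 30931020). On probe ILMN_2786442 its intensity was 5171 in LRRK2KO and 4378 in Ntg after LPS for 24 h, 10116 in LRRK2KO and 7549 in Ntg after LPS for 6 h, and 631 in LRRK2KO and 425 in Ntg after PBS. The log2 levels were 12.33 in LRRK2KO and 12.02 in Ntg at 24 h, 13.29 in LRRK2KO and 12.77 in Ntg at 6 h, and 9.32 in LRRK2KO and 7.94 in Ntg after PBS. The lowest LPS array was above the higher PBS array by a wide margin, and the 6 h arrays were above the 24 h arrays.

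Ptges rose by 3.54 ± 0.27 after LPS for 24 h (limma adjusted p = 0.00154) and by 4.40 ± 0.27 after LPS for 6 h (limma adjusted p = 0.000448), both against PBS. Among the 8598 genes these differences ranked 30th and 22nd from the highest. Both calls held with each array left out, between 3.06 and 4.02 at 24 h and between 3.92 and 4.88 at 6 h. The second probe, ILMN_2616028, gave 3.94 ± 0.31 (adjusted p = 0.00124 in a limma fit over all detected probes) and 5.13 ± 0.31 (adjusted p = 0.000297 in that fit). Between the LPS times the probes differ in their call: 24 h against 6 h was -0.86 ± 0.27 on ILMN_2786442 (adjusted p = 0.0700, limma) and -1.19 ± 0.31 on ILMN_2616028 (adjusted p = 0.0400, limma over all detected probes).

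Hpgds encodes the hematopoietic synthase of prostaglandin D (chromosome 6, 65117293 to 65144981). On probe ILMN_2981783 its intensity was 450.2 in LRRK2KO and 483 in Ntg after LPS for 24 h, 591 in LRRK2KO and 594 in Ntg after LPS for 6 h, and 704 in LRRK2KO and 1282 in Ntg after PBS. Its log2 levels were 8.49 in LRRK2KO and 8.58 in Ntg at 24 h, 9.22 in LRRK2KO and 9.16 in Ntg at 6 h, and 9.50 in LRRK2KO and 9.85 in Ntg after PBS. In each genotype the level was highest after PBS and lowest at 24 h. Hpgds fell by 1.14 ± 0.16 after LPS for 24 h against PBS (limma adjusted p = 0.00912) and by 0.66 ± 0.16 at 24 h against 6 h (limma adjusted p = 0.0375). After LPS for 6 h against PBS it differed by -0.48 ± 0.16, which did not pass (95% interval -0.89 to -0.08, limma adjusted p = 0.0595).

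The second Hpgds probe, ILMN_1225141, gave -1.18 ± 0.20 at 24 h against PBS, also called (adjusted p = 0.0153, limma over all detected probes), and -0.68 ± 0.20 between the LPS times, not called (adjusted p = 0.0589). The fall against PBS was no longer called without the LRRK2KO array of LPS for 24 h (-1.17, adjusted p = 0.0787), the Ntg array of LPS for 24 h (-1.11, adjusted p = 0.0961) or the Ntg PBS array (-0.97, adjusted p = 0.0691). The fall between the LPS times was called in 2 of the 6 fits that left out an array, those without a PBS array, with adjusted p-values from 0.0467 to 0.251 over the 6.

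Hpgd encodes the hydroxyprostaglandin dehydrogenase that begins the inactivation of prostaglandin E (chromosome 8, 56294552 to 56321046). Its only probe, ILMN_2649199, had an intensity of 98.02 in LRRK2KO and 103 in Ntg after LPS for 24 h, 110.28 in LRRK2KO and 106 in Ntg after LPS for 6 h, and 247 in LRRK2KO and 423 in Ntg after PBS. It was detected on both PBS arrays and on the LRRK2KO array of LPS for 6 h, and not on the other 3 arrays. The log2 levels were 4.41 in LRRK2KO and 4.43 in Ntg at 24 h, 5.12 in LRRK2KO and 4.73 in Ntg at 6 h, and 7.52 in LRRK2KO and 7.93 in Ntg after PBS. Every LPS array was far below both PBS arrays. Among the LPS arrays only the LRRK2KO array of 6 h was detected, so the order of the LPS times is not interpreted.

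After LPS for 24 h Hpgd was at least 6.30-fold lower than in PBS, with a fitted difference of -3.31 ± 0.22 (limma adjusted p = 0.00112). After LPS for 6 h Hpgd fell by 2.80 ± 0.22 against PBS (limma adjusted p = 0.000676), with 1 of the 2 LPS arrays detected. Both calls held with each array left out. The LPS times differed by -0.50 ± 0.22, which did not pass (95% interval -1.04 to 0.03, limma adjusted p = 0.142). Without background correction, on the authors' normalized values, the falls were smaller, at -1.55 for 24 h and -1.39 for 6 h, and still called.

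Pla2g7 encodes the secreted hydrolase that inactivates platelet-activating factor, a lipid mediator formed beside the prostaglandins (chromosome 17, 43567994 to 43612202). Its only probe, ILMN_2692696, had an intensity of 267 in LRRK2KO and 125 in Ntg after LPS for 24 h, 206 in LRRK2KO and 182 in Ntg after LPS for 6 h, and 164 in LRRK2KO and 148 in Ntg after PBS. It was detected on all 6 arrays. The log2 levels were 7.49 in LRRK2KO and 5.35 in Ntg at 24 h, 7.28 in LRRK2KO and 6.95 in Ntg at 6 h, and 6.54 in LRRK2KO and 5.45 in Ntg after PBS. LRRK2KO was the higher in each arm, the arrays of LPS for 24 h spanned both ends of the range, and those of LPS for 6 h lay above PBS.

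Pla2g7 passed no test between arms. The difference from PBS was 0.43 ± 0.40 after LPS for 24 h (95% interval -0.56 to 1.42, limma adjusted p = 0.523) and 1.12 ± 0.40 after LPS for 6 h (95% interval 0.14 to 2.11, limma adjusted p = 0.0684). The 6 h difference became called without 1 of 3 arrays, either array of LPS for 24 h or the LRRK2KO array of LPS for 6 h, at adjusted p-values of 0.0200 to 0.0205. The LPS times differed by -0.69 ± 0.40 (95% interval -1.68 to 0.29, limma adjusted p = 0.246).

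Ptger4 encodes EP4, the receptor for prostaglandin E that signals through cyclic AMP (chromosome 15, 5233399 to 5244187). Both of its probes, ILMN_2715903 and ILMN_1259522, were undetected on all 6 arrays, at intensities of 86.6 to 99.3. No arm or genotype stood apart, and no fold is given.

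**Figure D2:**
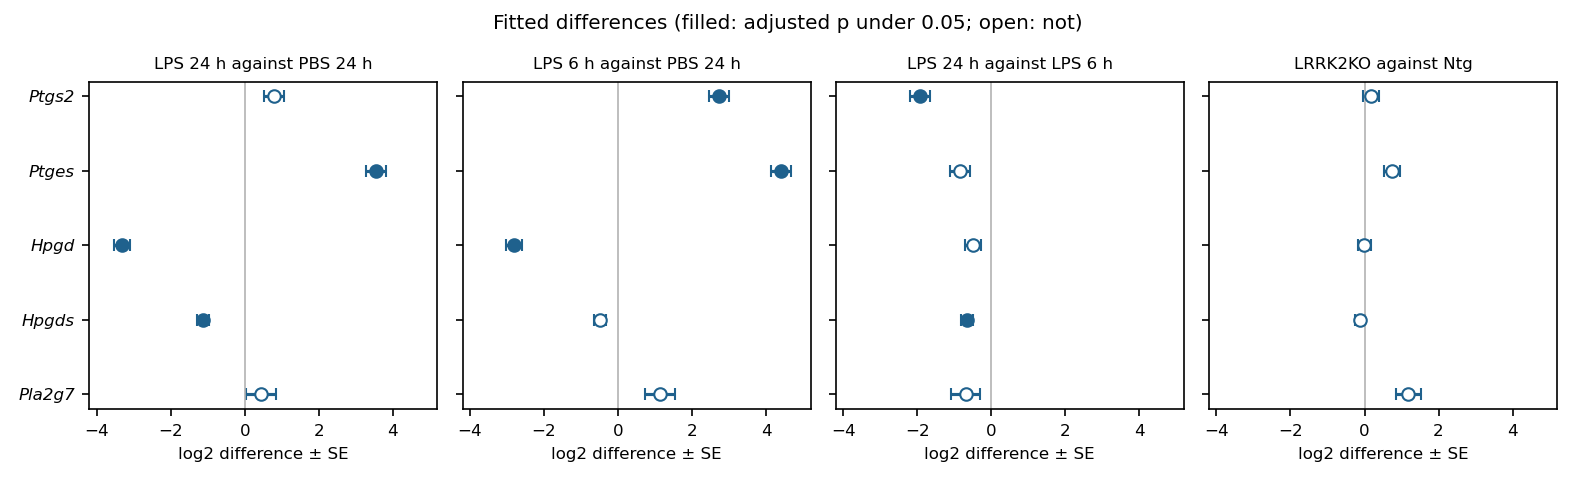
Fitted log2 difference (x axis) of the 5 tested members (rows) in each of the 4 comparisons (panels), with bars of 1 SE and filled points where the adjusted p is under 0.05. Ptges lies farthest to the right, at 4.40 after LPS for 6 h against PBS, and Hpgd farthest to the left, at -3.31 after LPS for 24 h against PBS. For that Hpgd difference and for Ptgs2 against PBS, 1 side was undetected.

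Counted over the 5 tested members, LPS for 24 h against PBS called 1 higher, where 6.54% of all genes were called higher, and 2 lower, where 8.99% were. LPS for 6 h against PBS called 2 higher (15.8% of all genes) and 1 lower (26.2%). LPS for 24 h against 6 h called 0 higher (14.1% of all genes) and 2 lower (9.68%). With so few members these counts are a description. Ptgs2 and Hpgd also reached the test only through the arms where they are high, so their presence among the called genes is partly set by the filter. Fewer cells of a type and less RNA per cell cannot be told apart in these samples.

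Quantile normalization moved the middle of the 6 h comparisons. The median of all genes was -0.13 for LPS for 6 h against PBS, against 0.04 with median scaling, and 0.10 for LPS for 24 h against 6 h, against -0.04 with median scaling. With quantile normalization 1357 genes were called higher and 2256 lower at 6 h against PBS, and with median scaling 1812 higher and 1698 lower. For 24 h against 6 h the split was 1216 higher and 832 lower, and with median scaling 925 higher and 1114 lower. Ptges, Ptgs2 and Hpgd kept their direction under both scalings in each comparison with PBS.

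Markers of cell types also moved with LPS. The summed normalized level of the 12 microglial markers was 26467 in LRRK2KO and 22733 in Ntg after LPS for 24 h, 31831 in LRRK2KO and 24333 in Ntg after LPS for 6 h, and 50219 in LRRK2KO and 50382 in Ntg after PBS. Those markers did not all move alike, since Itgam rose by 1.62 ± 0.14 at 24 h against PBS. The sum of 7 astrocyte markers was 1767 in LRRK2KO and 2374 in Ntg at 24 h, 819 in LRRK2KO and 1148 in Ntg at 6 h, and 315 in LRRK2KO and 342 in Ntg after PBS. In that list Gja1, a gap junction gene, differed by 4.05 ± 0.21 at 24 h and by 2.67 ± 0.21 at 6 h against PBS, while Aqp4 was detected on 1 array and Gfap on 2. Without Gja1 the sum of the other 6 astrocyte markers was 153 in LRRK2KO and 204 in Ntg at 24 h. It was 267 in LRRK2KO and 209 in Ntg at 6 h, and 201 in LRRK2KO and 229 in Ntg after PBS. The higher sums after LPS thus came mostly from Gja1, though in LRRK2KO at 6 h the sum stayed above PBS without it. Slc1a2, undetected in PBS, was called higher at 6 h, by at least 1.67-fold (limma adjusted p = 0.0089). The median difference of the 6 tested astrocyte markers was -0.17 at 24 h and 0.12 at 6 h. The part of these shifts in the members' differences was not tested.

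Between the genotypes 0 of the 5 tested members were called by limma, and 0.465% of all genes were. At an unadjusted p under 0.05 there were 2, Pla2g7 and Ptges, where 16.1% of all genes were. Pla2g7 averaged 7.10 in LRRK2KO and 5.92 in Ntg over the 3 arms, a difference of 1.19 ± 0.33 (95% interval 0.38 to 1.99, limma adjusted p = 0.181), and ranked 33rd from the highest of 8598 genes. Ptges differed by 0.74 ± 0.22 (95% interval 0.19 to 1.28, limma adjusted p = 0.206) and ranked 132nd. The second Ptges probe, ILMN_2616028, gave 0.45 ± 0.25 (adjusted p = 0.454, limma over all detected probes). Both genes were higher in LRRK2KO in 3 of 3 arms. These are the same values that the fit uses, and the share of all genes that do so was not counted.

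The other tested members lay near 0 between the genotypes. Ptgs2 differed by 0.17 ± 0.22 (95% interval -0.38 to 0.71, limma adjusted p = 0.765), Hpgds by -0.13 ± 0.13 (95% interval -0.46 to 0.20, limma adjusted p = 0.699) and Hpgd by -0.01 ± 0.18 (95% interval -0.45 to 0.42, limma adjusted p = 0.983). Those intervals still allow changes of some size in either direction.

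Within an arm the genotypes are 1 array each, so these differences have no test. For Pla2g7, LRRK2KO minus Ntg was 2.14 after LPS for 24 h, which is 4.42-fold, 0.33 after LPS for 6 h and 1.09 after PBS. For Ptges it was 0.31, 0.52 and 1.38 in the same order on ILMN_2786442, and 0.07, 0.06 and 1.22 on ILMN_2616028. Both Ptges probes place the gap mainly in the PBS arm. Over all genes, differences of at least 2-fold in either direction were counted where the brighter array was detected. They were seen in 3.93% of all genes at LPS for 24 h, in 3.49% at LPS for 6 h and in 2.74% in PBS. On the authors' normalized values, which keep the background, the Pla2g7 difference was 1.09 at LPS for 24 h and 0.48 in PBS. The Ntg levels of Pla2g7 lay near the lowest detected level of their arrays. They were 5.35 against 5.08 at LPS for 24 h and 5.45 against 4.91 in PBS, so the size of the fold depends on the background correction.

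Ptgs2 at LPS for 24 h was detected in LRRK2KO and undetected in Ntg, where its deposited detection p-value of 0.0128 lay just above the cutoff of 0.01. After background correction it was at least 1.58-fold higher in LRRK2KO. On the authors' normalized values, which keep the background, the log2 difference was 0.25. At LPS for 6 h Ptgs2 was -0.36 in LRRK2KO against Ntg. Hpgd in PBS was -0.41 in LRRK2KO against Ntg. Hpgds on ILMN_2981783 was -0.09 at LPS for 24 h, 0.06 at LPS for 6 h and -0.35 in PBS, and on ILMN_1225141 it was 0.31, 0.17 and -0.32 in the same order, so the probes differ in sign at LPS for 24 h. The measured differences of Hpgd in PBS and of Hpgds stayed under 2-fold.

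**Figure D3:**
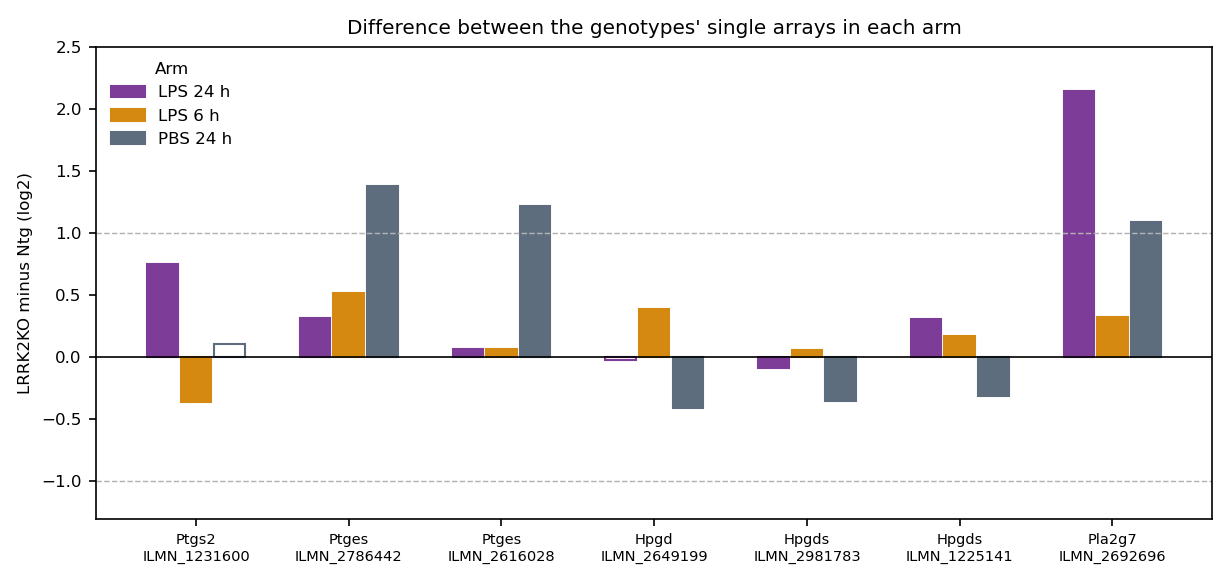
LRRK2KO minus Ntg (log2, y axis) for each detected member probe (x axis) in each arm (colour), 1 array against 1 array, with open bars where both sides were undetected and dashed lines at a 2-fold difference. Pla2g7 at LPS for 24 h is the highest bar, at 2.14, and both Ptges probes lie above 1 in PBS alone.

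The response to LPS was set out per genotype in the same way. Ptges after LPS for 24 h differed from PBS by 3.01 in LRRK2KO and by 4.07 in Ntg, and after LPS for 6 h by 3.97 in LRRK2KO and by 4.82 in Ntg. LRRK2KO minus Ntg was thus -1.06 at 24 h and -0.86 at 6 h, with the second probe at -1.15 and -1.16. Ptgs2 at 24 h against 6 h was -1.36 in LRRK2KO and -2.48 in Ntg, where the Ntg array of LPS for 24 h was undetected. Pla2g7 at 24 h against 6 h was 0.21 in LRRK2KO and -1.60 in Ntg. Over all genes, differences of response of at least 2-fold were counted where at least 2 of the 4 arrays were detected. They were seen in 2.64% of all genes for LPS for 24 h against PBS. The share was 5.14% for LPS for 6 h against PBS and 3.36% for 24 h against 6 h. The genotypes had responses of opposite sign in 1 of the 5 members, Pla2g7, for LPS for 24 h against PBS (25.6% of all genes), in 0 members for LPS for 6 h against PBS (19.2%) and again in Pla2g7 for 24 h against 6 h (22.6%).

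Markers of microglia and of other cells in the cultures also differed between the genotypes. Among the 10 tested microglial markers 1 was called higher in LRRK2KO and 0 lower. The called marker was Olfml3, at 2.83-fold (limma adjusted p = 0.0389). The median difference of the 10 was 0.29, against 0.0008 for all genes. Cx3cr1 differed by 1.73 ± 0.39, which did not pass (limma adjusted p = 0.130). Trem2, C1qa and Itgam were lower in LRRK2KO and did not pass either. The sum of 7 border macrophage and monocyte markers was 7118 to 7757 in LRRK2KO and 9713 to 13784 in Ntg, with Lyve1, Cd163 and Ccr2 undetected on all 6 arrays. The sum of 6 choroid plexus markers was 320 to 777 in LRRK2KO and 2675 to 7056 in Ntg, and that of 7 fibroblast, pericyte and meningeal markers was 169 to 279 in LRRK2KO and 244 to 527 in Ntg. The choroid plexus sum came mostly from Ttr, at log2 9.38 in LRRK2KO and 12.71 in Ntg in PBS. Clic6 and Ecrg4 were detected on the Ntg arrays alone, and Folr1 on none. Of 5 mast cell markers, which matter because mast cells make prostaglandin D, 0 or 1 was detected per array. The part of these markers in the differences of Pla2g7 and Ptges was not tested.

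Genes around the members were followed through lists of the same pathway, whose counts stand beside 6.54% of all genes called higher and 8.99% lower at 24 h against PBS, and 15.8% higher and 26.2% lower at 6 h. Of 9 tested genes listed for arachidonate release, LPS for 24 h against PBS called 1 higher and 3 lower, and LPS for 6 h called 2 higher and 4 lower. The list also holds Anxa1 and Plcb3, which do not free arachidonate directly, and Plcb3 was called higher at 6 h (0.74 ± 0.15). The list's median was -0.06 at 24 h, against -0.01 for all genes, and -0.54 at 6 h, against -0.13 for all genes. The lysosomal phospholipase Pla2g15 fell by 1.33 ± 0.20 at 24 h and by 2.74 ± 0.20 at 6 h (limma adjusted p = 0.0113 and 0.000613), and the diacylglycerol lipase Daglb fell by 1.48 ± 0.18 and 1.92 ± 0.18. Abhd12, a lysophospholipase, fell by 1.24 ± 0.16 at 24 h and by 0.70 ± 0.16 at 6 h. Pla2g6, a calcium-independent phospholipase, rose by 1.02 ± 0.16 at 24 h (limma adjusted p = 0.0127). Pla2g4a, the cytosolic phospholipase known for feeding the cyclooxygenases, was undetected on all 6 arrays.

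Of 9 other tested prostanoid synthases, 1 was called higher and 1 lower at 24 h against PBS, and 0 higher and 4 lower at 6 h, with medians of -0.36 and -0.43. The carbonyl reductases Cbr1 and Cbr3, which can convert prostaglandin E to the F form, were lower: Cbr1 fell by 1.28 ± 0.17 at 6 h and Cbr3 by 2.31 ± 0.15 at 24 h and 1.02 ± 0.15 at 6 h. At 6 h Prxl2b, a synthase of the F form, fell by 1.21 ± 0.28 (limma adjusted p = 0.0196) and Ptges3l by 1.22 ± 0.18 (limma adjusted p = 0.00483), the second with 1 of the 2 arrays detected. The further prostaglandin E synthases Ptges2 and Ptges3 were named after their values were seen. Ptges2 rose by 0.59 ± 0.14 at 24 h (limma adjusted p = 0.0433), and its difference of 0.36 ± 0.14 at 6 h did not pass (limma adjusted p = 0.0907). Ptges3 passed at neither time, at 0.77 ± 0.33 (limma adjusted p = 0.182) and 0.92 ± 0.33 (limma adjusted p = 0.0712).

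Of 3 tested prostanoid receptors, 1 was called higher and 1 lower at 24 h, and 2 higher and 1 lower at 6 h. The prostacyclin receptor Ptgir rose by 1.11 ± 0.21 at 24 h and by 1.43 ± 0.21 at 6 h, and the EP2 receptor Ptger2 rose by 1.14 ± 0.22 at 6 h (limma adjusted p = 0.0103). Pparg, a nuclear receptor for prostaglandin D products and other lipids, fell by 2.48 ± 0.17 at 24 h and by 3.06 ± 0.17 at 6 h, with 1 of the 2 arrays of LPS for 6 h detected.

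Of 6 tested transport and breakdown genes, 2 were called higher and 0 lower at 24 h, and 2 higher and 1 lower at 6 h. Slco3a1, an organic anion transporter that carries prostaglandins, had intensities of 633 in LRRK2KO and 923 in Ntg after LPS for 24 h, 805 in LRRK2KO and 1034 in Ntg after LPS for 6 h, and 119.9 in LRRK2KO and 156 in Ntg after PBS. All 4 LPS arrays were far above both PBS arrays. It rose by 3.80 ± 0.17 at 24 h and by 4.26 ± 0.17 at 6 h (limma adjusted p = 0.000575 and 0.000235), and the exporter Abcc4 rose by 0.80 ± 0.17 at 24 h. Zadh2, a prostaglandin reductase, rose by 0.60 ± 0.18 at 6 h, and the transporter Slco4a1 fell by 1.49 ± 0.45. The Slco4a1 difference lay mainly in LRRK2KO, at -2.52, and was -0.45 in Ntg, each from single arrays.

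**Figure D4:**
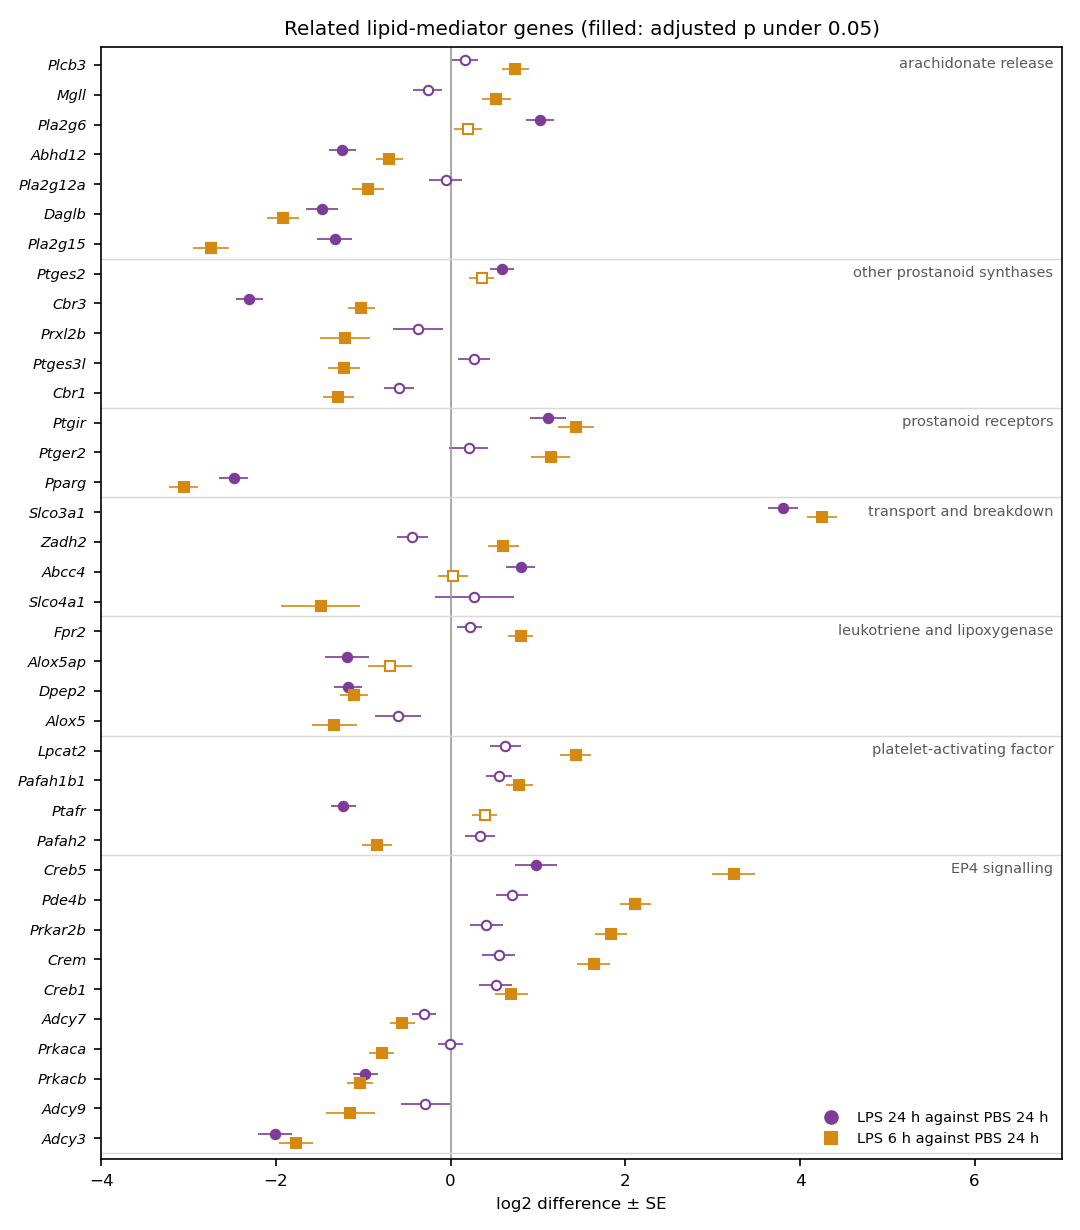
Fitted log2 difference from PBS (x axis, bars of 1 SE) of the 37 related genes called in at least 1 comparison with PBS (rows, grouped by list), for LPS for 24 h and for 6 h, filled where the adjusted p is under 0.05. Slco3a1 lies farthest to the right, at 3.80 and 4.26, and Pparg farthest to the left, at -2.48 and -3.06.

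Neighbouring lipid pathways were counted in the same way. Of 5 tested leukotriene and lipoxygenase genes, 0 were called higher and 2 lower at 24 h, and 1 higher and 2 lower at 6 h. Alox5ap, which presents arachidonate to the lipoxygenase, fell by 1.18 ± 0.25 at 24 h, and the lipoxygenase Alox5 was at least 1.56-fold lower at 6 h than in PBS (limma adjusted p = 0.0109). Dpep2, a dipeptidase of leukotriene conversion, fell by 1.17 ± 0.16 at 24 h and by 1.10 ± 0.16 at 6 h, and the formyl peptide receptor Fpr2 rose by 0.80 ± 0.14 at 6 h. Of 8 tested genes of platelet-activating factor, the lipid that Pla2g7 removes, 0 were called higher and 1 lower at 24 h, and 2 higher and 1 lower at 6 h. Its synthesis enzyme Lpcat2 rose by 1.43 ± 0.18 at 6 h, its receptor Ptafr fell by 1.23 ± 0.14 at 24 h, and the intracellular hydrolase Pafah2 fell by 0.84 ± 0.17 at 6 h. Pafah1b1, the regulatory subunit of another intracellular hydrolase, rose by 0.79 ± 0.15 at 6 h.

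Of 14 tested genes of the cyclic AMP pathway used by EP4, 1 was called higher and 2 lower at 24 h, and 5 higher and 5 lower at 6 h. The transcription factor Creb5 rose by 3.24 ± 0.24 at 6 h and by 0.98 ± 0.24 at 24 h, and the phosphodiesterase Pde4b, which degrades cyclic AMP, rose by 2.12 ± 0.18 at 6 h. Prkar2b, a regulatory subunit of the cyclic AMP-dependent kinase, rose by 1.83 ± 0.19 at 6 h. The adenylyl cyclase Adcy3 fell by 2.0 ± 0.19 at 24 h and by 1.77 ± 0.19 at 6 h, with 1 of the 2 arrays detected at each time.

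Between the LPS times, 24 h against 6 h, 14.1% of all genes were called higher and 9.68% lower. The lists had 4 called higher and 2 lower of 9 for arachidonate release, 2 and 2 of 9 for synthases, 0 and 1 of 3 for receptors and 2 and 1 of 6 for transport and breakdown. They had 0 and 1 of 5 for leukotrienes, 1 and 2 of 8 for platelet-activating factor and 1 and 4 of 14 for cyclic AMP. Ptger2 fell by 0.94 ± 0.22, Ptafr by 1.62 ± 0.14 and Creb5 by 2.26 ± 0.24 at 24 h against 6 h, the direction seen for Ptgs2. Pla2g15 rose by 1.41 ± 0.20 and Pafah2 by 1.17 ± 0.17.

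Between the genotypes 3 of the related genes were called, where 0.465% of all genes were. They were 1 of 9 tested synthases, 1 of 3 receptors and 1 of 14 cyclic AMP genes, with 0 in the other lists. The lists were chosen with earlier results of these data known, so the count is a description. Prkar2b had log2 levels of 9.62 in LRRK2KO and 7.77 in Ntg at LPS for 24 h, 10.83 in LRRK2KO and 9.42 in Ntg at LPS for 6 h, and 8.93 in LRRK2KO and 7.65 in Ntg in PBS. It was higher in LRRK2KO in each arm, by 1.51 ± 0.15 (limma adjusted p = 0.0389). Cbr3 was higher in LRRK2KO by 1.10 ± 0.13 (limma adjusted p = 0.0389) and Pparg was lower, by a difference of -1.13 ± 0.14 (limma adjusted p = 0.0437). These calls rest on the settings: without a detection filter none of the 3 was called (adjusted p = 0.101 for Prkar2b and Cbr3, 0.102 for Pparg), and none was without either array of LPS for 24 h (0.209 for Prkar2b, 0.275 for Cbr3 and Pparg) or either PBS array (0.108 for Prkar2b and Cbr3, 0.130 for Pparg). Cbr3 was also not called without either array of LPS for 6 h (0.0577), and Pparg not on the authors' normalized values (0.0793). Each of the 3 genes had the same direction in 3 of 3 arms, which are the same values that the fit uses. The border macrophage and choroid plexus sums given above differed over the same arrays.

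The genes with the pattern most like each member over the 6 arrays were found by the root mean square difference of log2 levels centred on each gene's mean, among 3513 genes that spanned at least 1 log2 unit. For Ptgs2 they were Tnf (0.198), Osm (0.206) and Tma16 (0.249). For Ptges they were Traf1 (0.396), Srgn (0.543) and Shisa3 (0.570). For Hpgds they were Rgs7bp (0.0739), Tceal9 (0.0980) and Gpx4 (0.117), for Hpgd H2ac24 (0.291), Pbk (0.293) and Cdca3 (0.30), and for Pla2g7 Atp13a3 (0.365), Susd2 (0.382) and Esd (0.384). Ptges has the least close neighbours by this measure and Hpgds the closest, and the arrays are shared by all of these genes. The measure is not scaled to a gene's range, which was 5.34 for Ptges and 1.36 for Hpgds. It therefore follows the size of change as well as its shape, also between members. Ptgs2 and Hpgd were detected on 3 of the 6 arrays each, so their distances rest partly on undetected levels. Among the members themselves the closest pair was Ptgs2 with Pla2g7, at 0.864, and the farthest Ptges with Hpgd, at 3.36.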

How the data were processed

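RNA from 6 groups of cultured microglia was hybridised to 1 Illumina beadchip each, and sample titles gave the groups. Per the file headers, the deposited table holds an unnormalized intensity and a detection p-value for each probe on each array. The array software was BeadStudio, per the submitters' processing notes (version not given in the sources used here). Intensity in the authors' series matrix ranks the probes of each array as the unnormalized values do, and how it was made is not given.

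Background was corrected and arrays were quantile normalized by neqc of limma with the detection p-values and offset 16, then put on log2. Gene symbols came from the platform annotation (34885 with 1 symbol, 18 with several, 10378 with none), and 0 symbols changed through RefSeq. Probes detected at p under 0.01 on at least 2 arrays were kept, and the one with the highest mean stood for its gene. The additive limma fit had 2 residual and 3.88 prior degrees of freedom, with two-sided p-values adjusted by Benjamini and Hochberg, and was tested on simulated data. The number of arrays limits the precision. Differences between single arrays had no test. Alternatives were median scaling, the authors' values, offset 50, other detection filters, the median of probes, a variance trend and leaving out each array.

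The members and lists were chosen with earlier results of these data known. All 7 members were named, with up to 4 genes per related list, those called with the largest change against PBS, the related genes called between the genotypes, and the 3 genes closest to each member. R 4.3.3, limma 3.58.1, Python 3.11.15 and matplotlib 3.10.9 were used.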

Additional observations from a re-analysis of the deposited data

Results flagged for a closer look

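Pla2g7, the hydrolase of platelet-activating factor, was the member whose single-array differences had opposite signs in the genotypes, though the smaller of them were slight. At LPS for 24 h against PBS its log2 level differed by 0.96 in LRRK2KO and by -0.10 in Ntg, so that the response in LRRK2KO minus that in Ntg was 1.05. At LPS for 24 h against 6 h it differed by 0.21 in LRRK2KO and by -1.60 in Ntg, a gap of 1.82. Each side is 1 array, so the difference was not tested. Opposite signs, whatever their size, were seen in 25.6% of all genes for 24 h against PBS and in 22.6% for 24 h against 6 h. On the authors' normalized values the gaps were 0.62 and 0.89, and the Ntg difference at 24 h against PBS was -0.03. The larger part of the 24 h against PBS gap lies in the LRRK2KO arrays, and that of the 24 h against 6 h gap in the Ntg arrays.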

How the results depend on the processing

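The calls of Ptges and Hpgd against PBS and of Ptgs2 at LPS for 6 h held in all alternatives that tested them. At 24 h against 6 h, 2 members were called in the fit as reported, 4 with median scaling, 1 without a detection filter, 1 with detection on all 6 arrays, and 0 to 3 with an array left out, 0 without the Ntg array of LPS for 24 h. At 6 h against PBS, 3 were called, and 5 with offset 50 and with a variance trend. Of 152 fitted differences under other settings, 140 kept their direction and call, 11 became called and 1 lost its call. Of 120 with an array left out, 101 kept both, 8 lost a call, 5 gained one and 6 changed sign. Those that changed sign had not been called. Leaving out an array gave Pla2g7 -0.29 to 1.15 at 24 h against PBS (lowest without the LRRK2KO array of LPS for 24 h) and -1.41 to 0.022 at 24 h against 6 h (highest without the Ntg array of LPS for 24 h). Between the genotypes it gave Ptgs2 -0.13 to 0.43 (lowest without either array of LPS for 24 h) and Hpgd -0.21 to 0.19 (highest without either PBS array). The cause was not tested. The 40 genes called between the genotypes became 0 without a detection filter (2143 at an unadjusted p under 0.05), 58 with detection on all arrays, 81 with median scaling, 100 on the authors' values, 112 with offset 50, 183 with a variance trend and 0 to 122 with an array left out. With an array left out, the count over all genes was 319 to 1633 at 24 h against PBS (1335 in full), 1815 to 3325 at 6 h against PBS (3613 in full) and 161 to 1976 at 24 h against 6 h (2048 in full). Where an array was left out, the lone array of its arm was assumed to vary like the others. No paired analysis was possible because each group has only 1 array and so no replicate number to block on, beyond the arm and genotype terms that every fit already holds.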
